A study of Mus musculus with 2 samples.

Results

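The tall peaks described here are the 365 intervals on chromosomes 1 to 19 whose summit was covered by 14 to 30 tags (extended reads) of an anti-Nr4a2 chromatin immunoprecipitation (ChIP-seq) library from BV2 cells, an immortalised mouse microglial line. They were chosen by that height, called the pileup, from 6996 peaks on those chromosomes and 7680 in the whole list. The comparison set, called low peaks, is the 6618 intervals of 7 to 13 tags. Another 13 peaks of over 30 tags were left out, because their input coverage was high: their backgrounds ran from 8.14 to 273.1 tags and their folds from 1.2 to 3.50. The list compares 1 library of DNA pulled down with the Nr4a2 antibody against 1 library of unprecipitated input, both from the same line, with no genetic change stated in the labels. Chromatin was cut enzymatically, per the labels' protocols. Both library names in the file header carry H2O2. The labels give no treatment, and both are described only as BV2 cells. Per the file header, 20365794 ChIP tags and 22520884 input tags were left without duplicates. There were no replicates, no other antibody and no cells lacking Nr4a2, so no test across samples was possible, and the 95% intervals below cover counting error only. The peak list carries no expression values, so the microglial identity of the cells could not be checked against marker genes.

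Nr4a2 (Nurr1) is an orphan nuclear receptor that binds DNA without a known hormone ligand. Its best known site is AAAGGTCA, which it can occupy as a monomer, and it can also act as a partner of other receptors or be recruited by other factors. It is known for keeping dopamine neurons of the midbrain alive and for damping inflammation in microglia. In ChIP-seq, the height of a peak rises both with the antibody's enrichment of a site and with how easily or how often that sequence is recovered in any library, and the input library measures the second of these.

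Only 7 tall peaks had their summit inside a window of 300 bp around an annotated start site (250 bases before to 50 after it). Their windows numbered 10, because neighbouring genes and alternative starts share a peak. The 5 windows with the highest fold are shown because they are the places where a tall summit sits on a promoter itself. They hold 4 different sequences, taken from RefSeq (GRCm38.p6, which is mm10) and written 5′ to 3′ on the strand of the gene. Capitals mark the only word of the search described further on that occurs in them, GGGCGG or its reverse complement CCGCCC. Slc35b1 (chr11:95384606-95384905, plus strand) encodes a nucleotide transporter of the endoplasmic reticulum, and its summit lay 100 bp before the start. Ipo13 (chr4:117914950-117915249, minus strand) encodes importin 13, a nuclear transport receptor, with the summit 166 bp before the start. Rad17 (chr13:100651012-100651311, minus strand) encodes the loader of the DNA damage checkpoint clamp, with the summit 87 bp before the start. Ak6 and Taf9, an adenylate kinase and a subunit of the general transcription factor TFIID, share 1 window on the opposite strand from Rad17 (chr13:100651093-100651392, plus strand), and the same summit lay 195 bp before their start.
Slc35b1: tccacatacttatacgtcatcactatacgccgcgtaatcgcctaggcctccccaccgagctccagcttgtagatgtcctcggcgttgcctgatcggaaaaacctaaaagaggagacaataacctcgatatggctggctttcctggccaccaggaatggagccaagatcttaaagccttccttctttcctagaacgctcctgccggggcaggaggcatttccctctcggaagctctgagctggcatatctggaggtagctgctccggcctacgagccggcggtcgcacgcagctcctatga
Ipo13: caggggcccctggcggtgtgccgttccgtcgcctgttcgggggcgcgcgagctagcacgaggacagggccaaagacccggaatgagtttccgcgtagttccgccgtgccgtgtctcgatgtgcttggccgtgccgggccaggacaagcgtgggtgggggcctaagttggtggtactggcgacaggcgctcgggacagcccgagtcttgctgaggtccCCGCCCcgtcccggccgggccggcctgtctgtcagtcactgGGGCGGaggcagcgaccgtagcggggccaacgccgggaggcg
Rad17: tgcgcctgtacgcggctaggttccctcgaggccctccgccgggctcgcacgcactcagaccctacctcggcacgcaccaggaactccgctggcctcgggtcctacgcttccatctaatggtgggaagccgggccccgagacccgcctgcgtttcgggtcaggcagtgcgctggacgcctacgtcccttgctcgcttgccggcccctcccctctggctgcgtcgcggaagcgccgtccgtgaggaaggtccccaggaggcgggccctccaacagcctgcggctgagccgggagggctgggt
Ak6 and Taf9: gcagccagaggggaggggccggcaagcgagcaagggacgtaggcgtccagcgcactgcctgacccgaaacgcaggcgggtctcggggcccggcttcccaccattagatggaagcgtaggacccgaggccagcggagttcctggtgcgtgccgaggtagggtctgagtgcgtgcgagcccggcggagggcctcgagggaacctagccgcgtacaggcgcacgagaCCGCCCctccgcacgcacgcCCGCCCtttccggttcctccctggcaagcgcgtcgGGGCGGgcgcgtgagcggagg

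These 3 peaks had 16 tags each over backgrounds of 1.81, 1.81 and 2.09 tags. The window of Ipo13 holds GGGCGG in either orientation 2 times and that of Ak6 and Taf9 3 times, while those of Slc35b1 and Rad17 hold none. None of the 4 sequences holds AAAGGTCA or its inner half-site AGGTCA. A match or its absence describes these letters only and says nothing of where the receptor binds.

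Tall peaks were mostly just past the limit. Of the 365, 181 had 14 tags, 78 had 15, 78 had 16 to 19 and 28 had 20 to 28, the highest value in the set. Just outside the limit lay 373 peaks of 13 tags, with a median background of 1.91 tags and a median fold of 4.81, against 2.11 tags and 4.83 for the peaks of 14 tags, so the values ran on across the limit. The fold is the authors' ratio of pileup to local background, each with 1 tag added, and the background here was recovered from it. Over all tall peaks the fold had a median of 4.71 (range 1.98 to 6.76), against 3.59 (2.35 to 5.03) in low peaks. By the deposited q-values 334 tall peaks (91.5%, 95% interval 88.2 to 94.2) had a q of at most 0.05, where 50.6% of all 6996 peaks did. A q of at most 0.001 was reached by 164 tall peaks (44.9%), against 2.42% of all peaks, and a fold of 5 or more by 149 (40.8%), against 3.74% of all peaks. Height chose the members and enters each of these values, so the differences describe the choice and are no finding.

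The background under the peaks differed as well. The lowest background the caller allows is the genome-wide value of 1.786 tags, and 68 tall peaks (18.6%, 14.8 to 23.0) stood on it, against 3335 low peaks (50.4%, 49.2 to 51.6). A background of over 2 times that value was found under 78 tall peaks (21.4%) and 65 low peaks (0.982%). All 28 peaks of 20 tags or more had a background of at least 2.71 tags, with a median of 6.44. Of the 31 tall peaks whose q was above 0.05, the lowest background was 4.004 tags and the median 6.23. A higher peak over a higher background is partly fixed by the calling rule, since a low pileup over a high background is not called. The part of high background in the height of these peaks was not tested.

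**Figure D1:**
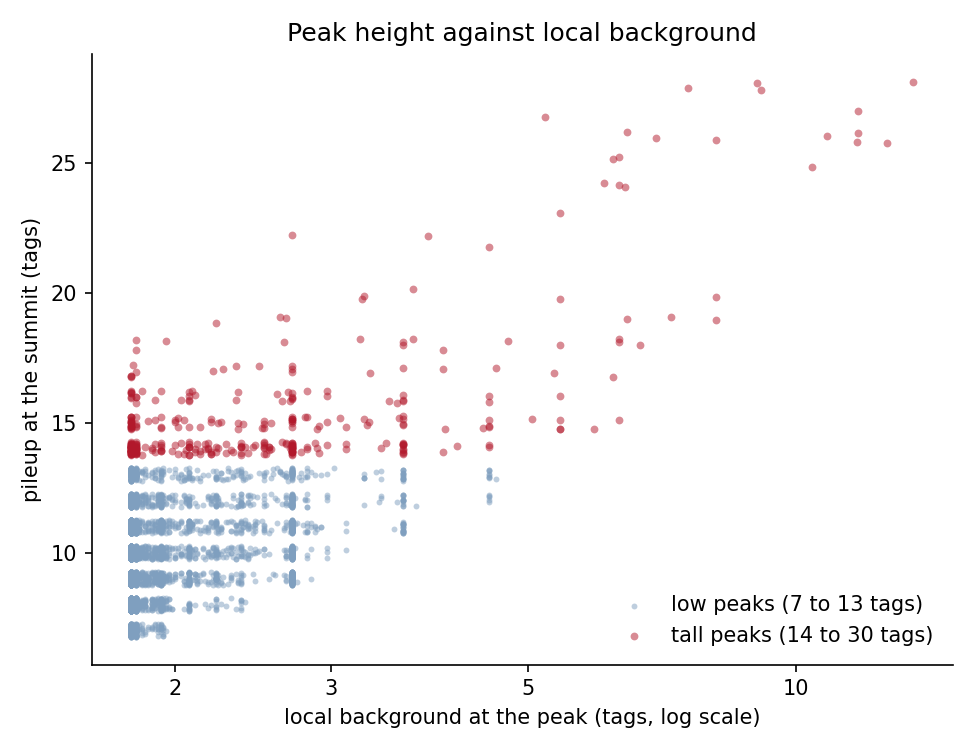
Pileup at the summit (tags, vertical axis, points spread slightly around whole numbers) against the local background (tags, log scale) for the 365 tall peaks (red) and 6618 low peaks (blue). The peaks of 20 tags or more all lie to the right, at backgrounds of 2.71 tags or more, and the peaks at the left edge stand on the genome-wide 1.786 tags.

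The tall peaks that stood out most from their background were not the highest ones. The fold was greatest, at 6.76, for a peak of 18 tags between genes, 26.0 kb from the cadherin gene Cdh12 (chr15:20422795-20423019), and for another of 18 tags inside Svbp, the gene of the small vasohibin-binding protein (chr4:119201066-119201256). Both had a background of 1.81 tags. The next was a group of 3 peaks of 17 tags on the genome-wide background, each of 6.46-fold. Of these 1 lay inside Plin2, the gene of a protein that coats lipid droplets, 12.1 kb from the nearest end of a coding gene, while the others lay 988 kb from Flrt2, an adhesion receptor gene, and 491 kb from Tbc1d22a. The remaining members of the 10 were near Ppm1f, a phosphatase gene (6.44-fold, 10.8 kb away), Ncs1, a neuronal calcium sensor gene (6.42-fold, 5.91 kb), Ndufb3, a subunit of respiratory complex I (6.41-fold, 18.1 kb), Mfsd14a (6.20-fold, 3.04 kb) and Tubb3, a neuronal tubulin gene (6.19-fold, 3.82 kb). Thus 8 of the 10 lay outside any coding gene, while 46.85% of all tall peaks and 46.87% of low peaks lay inside one. With 10 peaks picked by fold, no difference is read from this count. The peak near Tubb3, on chromosome 8, had 22 tags over 2.71 and the highest −log10 q of the set, 6.86.

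The highest pileups were a different group. Of the 5 highest, 4 had 28 tags and 1 had 27, which tied with a second peak of 27 tags near Gm10354 and ranked before it by its smaller deposited p-value (4.501- against 2.195-fold). They stood over backgrounds of 5.22 to 13.56 tags. On chromosome 5, 3 of them lay near Gm17019, Gm10354 and Speer4d, with folds of 3.386, 1.991 and 4.501. The others were 22.1 kb from Bmpr1b, a bone morphogenetic protein receptor gene (2.89-fold), and inside Sfi1, a centrosome gene (2.86-fold). The 5 lowest folds also came from high backgrounds, which the definition of the fold requires at 14 tags or more. They were inside Zfp984 (1.98-fold), near Gm10354 (the peak of 1.99-fold named above), near Mroh2a (2.12-fold), inside the Fc receptor gene Fcgr3 (2.12-fold) and near Gas8 (2.18-fold), over 6.33 to 13.56 tags, and all 5 had a q above 0.05. The peak named by Gas8 lay 21.6 kb from that gene, its nearest coding gene, and 691 bp from an end of the noncoding gene n-R5s111.

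Tall peaks were slightly wider than low peaks at the median but not at the upper quartile, which was 241 bp against 247 bp. The median width was 203 bp (197 to 209) against 189 bp (186 to 191), and 43 tall peaks (11.8%) had the minimum width of 164 bp, the estimated fragment length, against 30.5% of low peaks. On the genome-wide background alone the medians were 202 and 184 bp. Width is drawn from the same coverage that chose the members, so it is a description. The widest tall peak, 652 bp with 14 tags, lay inside Sf3b2, a splicing factor gene (chr19:5278683-5279334). It was followed by peaks of 585 bp near the activin receptor gene Acvr2a (1175 kb away), 560 bp inside the aminopeptidase gene Aopep, 558 bp near Acmsd and 500 bp inside Maml3, a Notch coactivator gene. Each of these 5 had 14 tags, as did 181 of the 365 tall peaks. Over the whole set width did not fall with height. The median width was 196 bp at 14 tags, 205.5 bp at 15, 221 bp at 16 to 19 and 207 bp at 20 to 28.

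Position among genes was not used to choose the peaks. A summit was placed at a gene end when a RefSeq gene record began or ended within 1000 bp of it, in a gene body when it lay elsewhere inside a record, and otherwise between genes. Exons and introns were not separated. Gene ends held 35 tall peaks (9.59%, 6.77 to 13.1) and 565 low peaks (8.54%, 7.88 to 9.24), a difference of 1.05 percentage points whose interval ran from -1.65 to 4.57. Gene bodies held 48.2% and 48.7%, and regions between genes 42.2% and 42.8%. The 3 shares of all tall peaks together thus differed from those of low peaks by no more than their counting error. The gene-body share depended on the limit of height. It was 42.9% with a lower limit of 15 tags and 32.1% with 16, below the 48.7% (47.4 to 49.9) of low peaks. Regions between genes then held 44.6% and 52.8%. With a q of at most 0.001 or a fold of 5 or more, bodies held 48.2% and 49.7%. No intervals were computed for these alternatives. By height, the share at gene ends was 10.5% (7.54 to 14.02) at 13 tags, just below the limit, 6.63% (3.47 to 11.3) at 14, 8.97% (3.69 to 17.6) at 15, 14.1% (7.26 to 23.8) at 16 to 19 and 17.9% (6.06 to 36.9) at 20 to 28, with overlapping intervals. On the genome-wide background it was 2 of 68 (2.94%, 0.358 to 10.2), at Cnst and Nudt8, against 7.92% of low peaks there.

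At a finer distance, 14 tall peaks (3.84%, 2.11 to 6.35) lay within 250 bp of an end of a coding gene, against 2.12% of low peaks, a difference of 1.72 points (0.138 to 4.24). This was 1 of 8 distances to coding ends compared, and within 500 bp of a coding end the difference was 0.971 points (-0.825 to 3.68). Further out, 68.5% of tall peaks and 60.6% of low peaks had a coding gene end within 50 kb, a difference of 7.93 points (2.86 to 12.6). The median distance to a coding gene end was 20.6 kb (15.6 to 24.9) for tall and 31.1 kb (29.5 to 32.6) for low peaks. Outside the dense stretches described further on, the medians were 24.65 kb (18.87 to 32.73) and 31.48 kb (30.08 to 33.08), with overlapping intervals. By chromosome, the median distance was lower in tall peaks on 10 of the 11 autosomes that had 10 or more of them. The exception was chromosome 11, with 13.6 and 13.4 kb, and chromosome 17 was nearly level, with 19.87 and 19.94 kb. The tall medians of these chromosomes rest on 14 and 12 peaks. Background moved with the difference in median distance. On the genome-wide background the medians were 37.6 kb (19.6 to 88.4) and 39.6 kb, above it 16.9 kb (13.9 to 22.4) and 25.4 kb (23.1 to 27.4), and among tall peaks with a q of at most 0.001 the median was 33.5 kb (20.9 to 52.4). The part of background in the nearness was not tested.

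**Figure D2:**
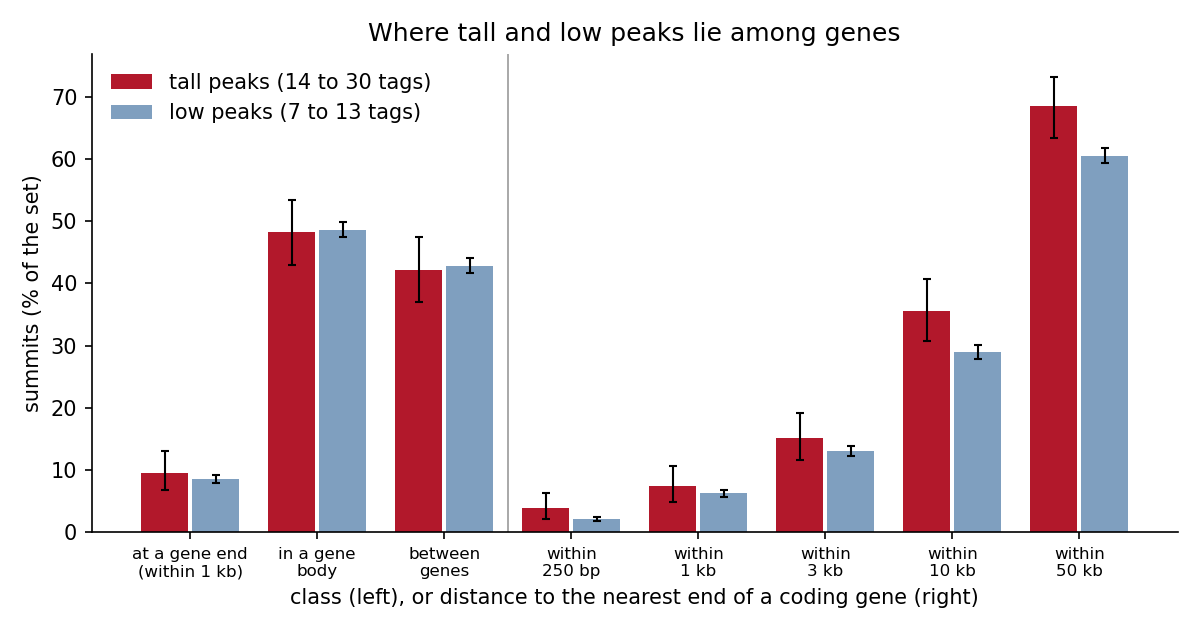
Share of summits (% of the set, bars, with 95% Clopper-Pearson intervals) in 3 classes of position and within 5 distances of a coding gene end, for 365 tall peaks (red) and 6618 low peaks (blue). The class shares overlap, and the gap widens towards 50 kb, where the shares are 68.5% and 60.6%.

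Tall peaks reached far into gene-poor sequence too. In 19 cases (5.21%) the nearest coding gene end was over 500 kb away, close to the 5.05% of low peaks. The median number of coding genes starting within 500 kb was 9 (8 to 11) for tall and 7 (7 to 8) for low peaks. On the genome-wide background the medians were 5 (3 to 9) and 6 (6 to 7), and above it 10 (9 to 12) and 9 (8 to 9). The 166 coding genes that held a tall summit, each counted 1 time, had a median length of 79.7 kb (63.8 to 103), against 72.2 kb (67.5 to 76.8) for the 2308 that held a low one. The order depended on the counting. With a gene counted for each summit it held, the medians were 85.2 kb (68.7 to 115.2) and 103.3 kb (97.5 to 110.9). For genes counted 1 time on the genome-wide background they were 83.6 and 92.75 kb. The longest of the 166 was Hdac9, which encodes a class IIa histone deacetylase, at 869.5 kb, with a peak of 15 tags and 5.70-fold 170 kb from its nearest end (chr12:34746907-34747076). Of the 166 genes 67 also held a low summit, and 9 held 2 or more tall ones.

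The genes with a tall summit at an end were of varied function. Of the 35 gene-end peaks, 27 were at coding genes and 8 at noncoding genes alone. By the genes' own annotated start sites, 14 of the 27 were within 1000 bp of the start and 9 at the other end, while for 4 genes no start site was used here. Among the 12 of highest fold, 8 were at a start, 3 at the other end and 1, Itch, was not assigned. Those at starts were Slc35b1 and Ipo13 (both 6.05-fold), Trp53inp2 (5.58-fold), an autophagy factor gene, Rad17 (5.50-fold), Brat1 (5.38-fold), whose product acts with the ATM kinase, Cnst (5.38-fold), a connexin trafficking gene, Nudt8 (5.38-fold), a nudix hydrolase gene, and the zinc finger gene Zfp12 (4.72-fold). Their summits lay 53 to 910 bp from the start site, nearest at Cnst and farthest at Brat1. The peaks at the other end, away from the start, were at Svbp (6.76-fold, 134 bp), Fmnl3 (5.61-fold, 37 bp), a formin that assembles actin, and Prex1 (5.53-fold, 93 bp), an exchange factor that activates Rac. For Fmnl3 and Prex1 their own start site was 53309 and 147394 bp from the summit. Itch, a ubiquitin ligase gene, had a peak of 15 tags and 4.54-fold 528 bp from an end. A peak at a gene record thus lay at its start in some cases and at its far end in others, and a summit at 1 gene's end can lie at a neighbour's start.

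Chromosome 3 held more than its share of tall peaks. Of its 585 peaks 77 were tall (13.2%, 10.5 to 16.2), against 4.49% (3.998 to 5.03) on the other autosomes together, a ratio of 2.93 (2.31 to 3.71). The next highest shares were 7.10% (4.69 to 10.2) on chromosome 4 and 6.66% (4.92 to 8.78) on chromosome 12, which overlap each other. The lowest were 1.20% (3 of 250) on chromosome 9 and 0 of 98 on chromosome 18, with an exact upper limit of 3.69%. Chromosomes 6 and 10 had only 47 and 58 peaks of any height, so their shares are poorly fixed. Per Mb between the first and last annotated gene, chromosome 3 had 0.481 tall peaks (0.38 to 0.602), chromosome 12 had 0.383 (0.281 to 0.511) and chromosome 15 had 0.260 (0.171 to 0.378).

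**Figure D3:**
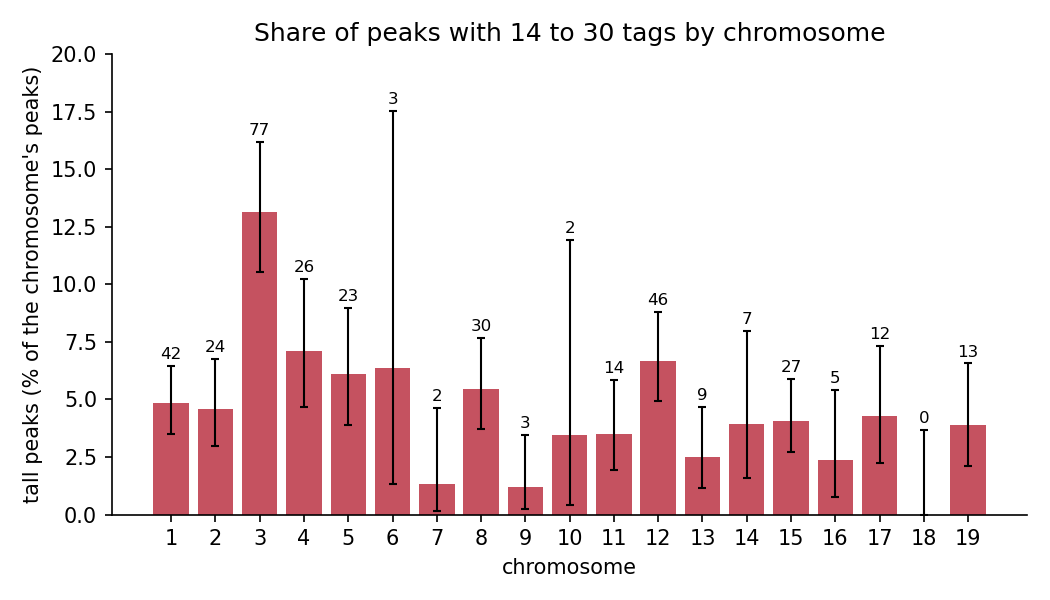
Tall peaks as a share of the called peaks of each autosome (%, bars, with 95% Clopper-Pearson intervals and the number of tall peaks above each bar). Chromosome 3, with 77 tall peaks and 13.2%, lies above the intervals of the other chromosomes with 20 or more tall peaks, and chromosome 18 has none.

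The share of tall peaks was higher on chromosome 3 over both kinds of background, and outside a few dense places as well, in part with overlapping intervals. On the genome-wide background 9 of its 192 peaks were tall (4.69%, 2.17 to 8.71), against 1.84% (1.40 to 2.36) elsewhere, and these intervals overlap. Above that background the shares were 17.3% and 7.16%. Low peaks of chromosome 3 also stood on the genome-wide background less often than those of the list as a whole, at 36.2% against 50.4%. This was not particular to chromosome 3. On chromosomes 12 and 15, where 6.66% and 4.07% of peaks were tall, 38.1% and 39.8% of low peaks stood on it. To describe how tall peaks bunch, tall summits less than 1 Mb apart were linked, and links of 5 or more were called stretches, a rule set after the positions were seen. Over the autosomes 14 stretches held 115 tall peaks (31.5%) and 174 low peaks (2.63%). The rule seeks tall peaks, so their excess in the stretches is built in. Outside the stretches the share of tall peaks was 6.82% (4.74 to 9.44) on chromosome 3 and 3.49% (3.05 to 3.98) on the other autosomes. Split by background as well, the intervals overlapped. On the genome-wide value the shares outside the stretches were 4.19% (1.825 to 8.09) and 1.79% (1.36 to 2.31). Above it they were 8.53% (5.60 to 12.3) and 5.28% (4.51 to 6.14).

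The largest stretch ran for 5.74 Mb on chromosome 3 (chr3:50181841-55919519) and held 28 tall and 27 low peaks. Its tall peaks had 14 to 22 tags over backgrounds of 2.02 to 6.23, with none on the genome-wide value and a median of 3.31. Maml3 held 4 tall summits, of 22, 18, 17 and 14 tags, and no low one. The first of these was 4.74-fold (chr3:52093165-52093435), and the one of 17 tags was 2.49-fold over 6.23 tags. Lhfp, a tetraspan membrane protein gene, held 4 tall summits of 15 to 17 tags and 3.08- to 4.92-fold. Nbea, which encodes the vesicle trafficking protein neurobeachin, held 3, of 19, 15 and 14 tags and 5.45-, 5.30- and 4.83-fold, beside 7 low ones. No other coding gene held more than 3 tall summits, the number that Gm7592 on chromosome 1 also held. At the edge of lower coordinates 5 tall peaks, of 14 to 22 tags and 2.72- to 4.94-fold, had Slc7a11, the cystine transporter gene, as their nearest coding gene, at 95.6 to 220 kb from its ends. None of the 5 lay inside the gene, whose single internal peak was a low one of 3.14-fold.

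**Figure D4:**
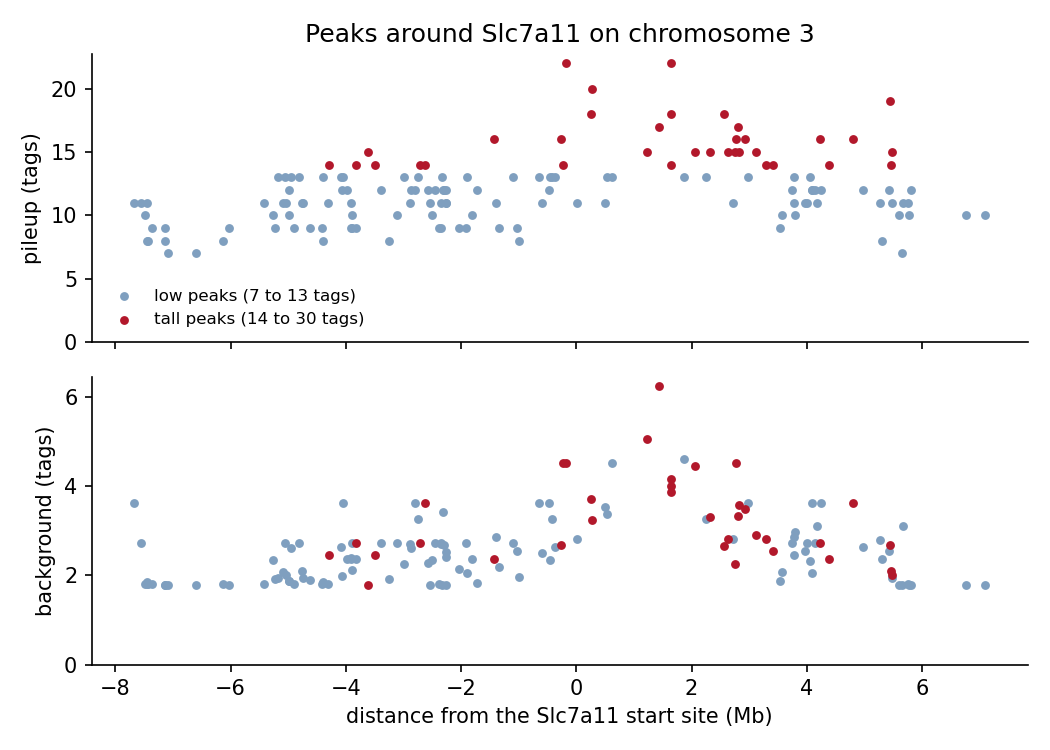
Pileup (top, tags) and local background (bottom, tags) of the 148 peaks within 8 Mb of an annotated Slc7a11 start site on chromosome 3, by distance from it (Mb), with 35 tall peaks in red and low peaks in blue. The highest background, 6.23 tags, belongs to a tall peak to the right of the start site, and the tall peaks lie between 1.79 and 6.23 tags.

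Several other stretches lay among groups of like-named genes. Values there are uncertain where gene copies are alike, and sequence identity and read mapping were not tested. On chromosome 5 (chr5:14948050-15671457) 11 tall peaks and no low peak lay nearest to Speer4 genes or predicted genes beside them, over backgrounds of 4.60 to 13.56 tags, with a median fold of 2.68. On chromosome 4 (chr4:145439857-147812427) the stretch held 15 tall and 19 low peaks. Its tall summits lay in or near genes that included the zinc finger genes Zfp978, Zfp980, Zfp981, Zfp984 and Zfp600, with a median background of 3.62 tags and up to 26 tags in height. On chromosome 1 (chr1:84377862-85625500) the stretch held 8 tall and 4 low peaks. Of the tall ones 1 lay inside Dner, and the other 7 inside Sp140 or Sp110, which encode nuclear body proteins of immune cells, or the predicted genes Gm7592 and Gm38510. On chromosome 8 (chr8:20511253-20625138) 5 tall peaks lay by Gm40469 and Gm21119 over a median of 5.43 tags. Of the 28 tall peaks of 20 tags or more 19 were in stretches, as were 22 of the 31 with a q above 0.05. Outside the stretches tall peaks had a median background of 2.08 tags and a median fold of 5.12, against 3.23 tags and 4.04 within them.

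Tall peaks also had close neighbours more often. Another peak of any height lay within 10 kb of 63 tall peaks (17.3%, 13.5 to 21.5) and of 11.1% of low peaks, a difference of 6.17 points (2.55 to 10.5). All 24 tall peaks with another tall peak that near were in stretches, and outside the stretches the share of tall peaks with any neighbour was 12%.

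Of the genes in 20 lists drawn up around Nr4a2, microglia, stress and general cell functions, a larger share than of all coding genes held a tall peak, and the same was so for low peaks. A gene was counted when a tall summit lay inside it or within 1000 bp of its ends, which was so for 182 of 21887 coding genes (0.832%, 0.716 to 0.961), and for 2494 (11.4%) with low peaks. Of 586 genes in 20 lists 14 were counted (2.39%, 1.31 to 3.98), and 124 (21.2%) with low peaks, a difference found at both heights. The lists were drawn up with results of these data known and gene length was not matched, so nothing particular to them is read from this.

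Among lipid genes 2 of 27 were counted. Plin2 had the peak of 6.46-fold described above, and Cpt1a, which encodes the enzyme that admits fatty acids to mitochondria, a peak of 15 tags and 4.31-fold 1.29 kb from an end. Among DNA damage and p53 genes 2 of 25 were counted, Rad17 and Brat1. Chromatin regulators gave 2 of 32, Hdac9 and the remodelling ATPase gene Smarca2, the latter with 14 tags and 5.38-fold on the genome-wide background. Splicing genes gave 2 of 33, Tra2b, a splicing regulator gene, with 15 tags and 5.70-fold, and Sf3b2 with 14 tags and 4.39-fold. Further lists gave 1 gene each. Of autophagy and lysosome genes it was Trp53inp2 (1 of 22), of heat shock and unfolded protein response genes the chaperone gene Hsp90aa1 (1 of 28, 15 tags, 3.89-fold, 154 bp from an end), and of ubiquitin and proteasome genes Fbxw7, a ubiquitin ligase subunit (1 of 29, 14 tags, 4.70-fold).

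Of 36 microglia and macrophage identity genes 1 was counted, Fcgr3, which encodes a receptor for the constant part of antibodies. Its peak of 26 tags stood on a background of 11.7 tags, and its fold of 2.12 did not reach a q of 0.05 (−log10 q of 0.811). No tall peak lay in or at any of the 13 genes of the NR4A family and partner receptors (an exact upper limit of 24.7%), the 42 of inflammation and NF-kappaB (8.41%), the 31 of oxidative stress defence and iron (11.2%), the 26 immediate early genes (13.2%) or the 19 dopamine neuron genes (17.6%). The same held for interferon response, cell cycle, other nuclear receptor, oxidative phosphorylation and ribosomal protein genes. It held too for the 45 genes of synaptic adhesion. Of all coding genes 0.832% were counted, so a list this small can give 0 at that share, and no lack is read from it. Low peaks were counted for 24 of the 45 synaptic adhesion, 12 of 35 other nuclear receptor, 4 of 13 NR4A and partner and 4 of 19 dopamine neuron genes. They were counted for 5 of 42 inflammation, 3 of 31 oxidative stress and 2 of 26 immediate early genes, against 11.4% of all coding genes. In the remaining lists without a tall peak the share was 3.33 to 11.1%. In all 9 of the 20 lists had at least 1 gene with a tall peak and 11 had none. By nearest coding gene instead, 23 listed genes were reached. These, chosen after their values were seen, included Dusp1, an immediate early phosphatase gene, 20.8 kb from a peak of 5.20-fold, the nuclear receptor gene Ppara, 15.5 kb from one of 4.22-fold, and the dopamine neuron factor gene Lmx1b, 8.38 kb from one of 4.57-fold.

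The promoter windows under tall summits were rich in G and C. The 10 windows had a median GC content of 66.2%, against 62.7% in 67 windows under low summits and 53% in all 31396 autosomal windows. GGGCGG, the core of the site of Sp family factors, was present on either strand in 7 of the 10 (70.0%, 34.8 to 93.3), in 55.2% of those under low summits and in 36.0% of all. These 7 windows belong to 5 peaks, and the 10 windows hold 9 different sequences. AAAGGTCA (TGACCTTT on the other strand) occurred in 0 of the 10 windows and in 0 of the 67 under low summits, where 1.51% of all windows hold it. With 10 windows a count of 0 leaves an upper limit of 30.8%, so no difference was detectable. The intervals over the 10 windows treat them as independent. The windows come from 7 peaks and some overlap, so these intervals are too narrow. Its inner word AGGTCA, which every AAAGGTCA contains, was in 0 of the 10, 16.4% of the 67 and 16.3% of all. CCAAT was in 3 of the 10, which belong to 2 peaks, and in 37.3% of all. CCGGAAG was in 1 of the 10 and 9.004% of all. TATAAA was in 2 of the 10, overlapping windows of 1 peak, and in 13.6% of all. TGANTCA, TGACGTCA and CACGTG were in none, against 7.84%, 1.83% and 7.14% of all. Most tall summits lie outside such windows, and their sequences were not used here.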

How the data were processed

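The members, the gene lists and the distances were chosen with earlier results of these data known. Per the submitters' processing notes, Bowtie2, MACS2 2.2.6 and ChIPseeker were used with mm10, while the deposited file was written by MACS 2.1.4. Its header gives 1 ChIP library called against 1 input with a p-value cutoff of 0.001, a fragment length of 164 bp, 1 tag kept per position, and the larger library scaled towards the smaller.

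The deposited pileup is a coverage signal, in extended tags over the summit. The deposited fold enrichment is a ratio, (pileup + 1) over (background + 1), which was checked on the values: the lowest background recovered from it, 1.786 tags, equals ChIP tags times fragment length over the genome size in the header. The deposited −log10 p-value and −log10 q-value columns were used as given to describe and filter, although the header announces that no q is computed. Peak positions and widths are in bp, per the file headers.

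Computed here, with Python 3.11.15, pandas 2.3.3, numpy 2.4.6, scipy 1.17.1 and matplotlib 3.10.9: the background, taken as genome-wide within 0.002 tags; the distance from each summit to 39334 RefSeq gene records other than pseudogenes, 21887 of them coding (GRCm38.p6); and words in 31396 start-site windows of 300 bp. Chromosome 18 was not used for start sites. Of 590 list entries 586 matched a coding gene by symbol. The result of 1 list is not reported here. Shares carry Clopper-Pearson, differences Newcombe and medians binomial order-statistic 95% intervals. They cover counting error only, since PCR copies and neighbouring peaks are not independent. Distance placement was tested on simulated data. No test was made, because each kind had 1 library.

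Named peaks were the 10 of highest fold, the 12 of highest fold at coding gene ends, the 5 highest, 5 widest and 5 of lowest fold, the longest gene, 3 genes with the most tall summits and up to 3 members of each list. Sequences shown were the 5 windows of highest fold that hold a tall summit. Names outside this rule were chosen after their values were seen. Alternatives were other limits of height, q, background, fold and distance, and, added after seeing the data, leaving out chromosome 3 or the stretches.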

Additional observations from a re-analysis of the deposited data

Results flagged for a closer look

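Peaks of 14 to 30 tags also lay outside the autosomes, in data that no comparison above uses, and the control is the input already in their fold. Chromosome X had 16 among its 652 peaks (2.45%, 95% interval 1.41 to 3.96), with folds of 2.90 to 6.10 and a median background of 1.81 tags. The mitochondrial genome had 6 among 9 peaks, with folds of 2.72 to 4.98. Unplaced or random contigs had 7 among 19 peaks, with folds of 2.68 to 5.46 and a median background of 3.62 tags.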

How the results depend on the processing

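Over 81 alternative values of the results, 44 stayed within the counting error, or the limit set for a count, and 37 did not. Some of these alternatives count something else, namely another window for gene ends or neighbours, coding genes alone, or the nearest gene. A move there can follow from the definition alone, so the 37 are no plain measure of stability. The cause of the other moves was not tested. With a lower limit of 15 tags, the share in gene bodies was 42.9%, the median width 209.5 bp, the gap between the autosomes with the highest and lowest share of tall peaks 7.35 points (13.2 as reported) and the share with a neighbour within 10 kb 21.7%. With 16 tags, gene ends held 15.1%, bodies 32.1% and regions between genes 52.8%, the gene-end difference from low peaks was 6.56 points, the median distance 15.04 kb, the width 216 bp, the autosome gap 4.27 points, the neighbour share 24.5%, and 6 listed genes were counted. With a q of at most 0.001 the distance was 33.5 kb, the neighbour share 13.4% and the listed genes 9. On the genome-wide background alone gene ends held 2.94%, the difference turned to -4.97 points (-7.31 to 2.24), the distance was 37.6 kb, the autosome gap 4.69 points, the neighbour share 13.2% and the listed genes 2. With a fold of 5 or more these were 30.9 kb, 49.0 points, 12.1% and 9, the gap then being a share of few peaks. Gene ends within 500 bp held 5.75% and within 3000 bp 20.3%, bodies then holding 40.5%. With coding genes alone bodies held 42.7% and regions between genes 49.9%. Neighbours within 50 kb were found for 51.0%, and 23 listed genes were reached by nearest gene. The ratio of chromosome 3 to the other autosomes was 3.81 per Mb. Of the alternatives chosen after seeing the data, leaving out chromosome 3 gave an autosome gap of 7.10 points, and leaving out the stretches a gap of 6.82 points and a neighbour share of 12%. The limit of q at most 0.001 was not run for the gene-end difference and the autosome gap, because 0 low peaks reach it. No paired analysis was possible because there was 1 ChIP and 1 input library, and no library could be left out. Heights are whole tags, so 1 tag decides the membership of the 181 peaks of 14 tags.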
